A study of Rattus norvegicus with 6 samples.

Results

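The genes described here encode the machinery that carries secreted and membrane proteins from the endoplasmic reticulum (ER) to the Golgi apparatus. They were chosen by gene symbol alone: the Sec, Ssr, Spcs, Srp, Pdia, Tmed, Kdelr, Dnajb, Dnajc, Trappc and Cop coat families, together with Hspa5, Calr, Rpn2 and Dad1. Hsp90b1 and Rpn1 also belong to the rule and were not analysed here. The rule gave 107 of the 12167 genes measured on the arrays. Because it works by name, it also takes in relatives that do not act in the ER, among them many J proteins of the cytosol, the cilium and the mitochondrion, and the lipid-binding Sec14-like proteins.

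The data are 6 microarrays with 1 colour each. All rats were adult Sprague-Dawley males labelled as normal, with no treatment or genetic change in any group. The tissues were the pineal gland (2 arrays), the third ventricle ependyma, the subfornical organ and the subcommissural organ (1 array each, every one of these 3 a pool of 2) and total brain (1 array of pooled brains, the reference). All but total brain were taken by laser microdissection, and 3 ng of RNA per sample was amplified in 2 rounds. Nothing in the labels says that the pair of pineal gland arrays stands for separate animals, so any p-value rests on a spread that may be technical. In bulk tissue, fewer cells of a type and less RNA per cell cannot be told apart.

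Proteins enter the ER as they are made. The signal recognition particle (SRP) stops the ribosome at a signal sequence, the Sec61 translocon threads the chain through the membrane, signal peptidase cuts the signal off and oligosaccharyltransferase attaches sugars. Lumenal chaperones and disulfide isomerases fold the chain. The COPII coat buds vesicles towards the Golgi, the TRAPP complex tethers them, and the COPI coat and the KDEL receptors bring escaped ER residents back. The subcommissural organ is a gland of ependymal cells that secretes large glycoproteins into the cerebrospinal fluid, whereas the pineal gland releases melatonin, a small molecule that does not pass through the ER lumen.

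Cells that fold much secreted protein raise several of these genes through short promoter elements read by ATF6 and XBP1. The ER stress response element ERSE (CCAAT, 9 bases of any kind, then CCACG) and the unfolded protein response element UPRE, TGACGTGG, were searched on both strands in the 250 bases before each gene start in RefSeq's promoter table (build GRCr8). They were chosen with results of these data known. Of the 107 members, 89 had an entry. Members were counted by the first entry of each gene, and all promoters by every entry. ERSE was found in 3 of these 89 promoters (3.37%) and in 22 of all 33469 promoters (0.0657%). UPRE was found in 5 of the 89 (5.62%) and in 0.520% of all promoters. The related element ERSE-II (ATTGG, any base, then CCACG) was found in 0 of the 89 and in 14 of all promoters. The ERSE promoters and 2 of the UPRE promoters are shown because their genes include chaperones and a KDEL receptor described below. Capitals mark the fixed letters of the element, and each window is read 5′ to 3′ on the strand of the gene.
Hspa5, ERSE 43 to 25 bases before the start (chr3:38452953-38453011, plus strand): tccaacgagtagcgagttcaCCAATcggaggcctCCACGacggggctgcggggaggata
Dnajc3, ERSE 133 to 115 bases before the start (chr15:102432514-102432572, plus strand): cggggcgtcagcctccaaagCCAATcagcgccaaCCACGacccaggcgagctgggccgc
Calr, ERSE on the opposite strand, 232 to 214 bases before the start (chr19:40213117-40213173, plus strand): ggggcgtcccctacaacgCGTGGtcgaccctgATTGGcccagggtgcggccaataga
Kdelr3, UPRE on the opposite strand, 101 to 94 bases before the start (chr7:112959511-112959558, plus strand): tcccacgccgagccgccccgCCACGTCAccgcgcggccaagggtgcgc
Dnajc25, UPRE on the gene's strand, 28 to 21 bases before the start (chr5:78620560-78620607, plus strand): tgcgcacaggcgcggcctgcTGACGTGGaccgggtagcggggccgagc
The other UPRE matches lay before Copb2, Dnajb3 and Srp19. Such elements are already known from several of these genes, so the shares above are a description and not a test. A match is a description of the sequence and not evidence of binding, and the levels of these genes are not read from it.

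Intensities are on the authors' linear scale, with array medians between 1.04 and 1.07. Comparisons used genes whose higher side reached 1.05, here called measured. This is the pooled median of all probes. Before log2 was taken, 0.142 (percentile 5 of all values) served as the floor. All 8 pinealocyte markers reached 1.05 on both pineal gland arrays, where they summed to 1993 and 1517, against 19.9 to 41.5 elsewhere. The 4 subcommissural markers measured summed to 460 on that organ's array, 206 in the ependyma and 15.4 to 35.8 elsewhere. Of these Msx1 was at 241 and 204 in those 2 structures, while Cuzd1 and Creb3l4 reached 1.05 in the subcommissural organ alone. Of 6 cilia markers measured, Foxj1 stayed below 1.05 on every array, and the list summed to 1188 in the subcommissural organ, 1337 in the ependyma, 292 in the subfornical organ, 52.0 in total brain and at most 15.2 in the pineal gland.

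Most members were detected in every structure. Of the 107 members, 84 reached 1.05 on all 6 arrays (78.5%, against 52.0% of all genes). The 8 that reached it on no array were the COPII scaffold genes Sec16a and Sec16b, Sec14l1, Sec14l3, Trappc11, Dnajc16, Dnajc18 and Dnajc28. For these nothing can be said, since a dim value can also come from a probe that reports poorly: the abundant neuronal gene Snap25 was at 0.570 in total brain. The other 99 members varied little. Between the highest and the lowest array 72 of the 99 (72.7%) differed less than 4-fold, against 46.3% of all such genes. The median range was 2.82-fold, against 4.37-fold. The 107 members were also brighter, with a median level of 12.3 against 4.52 for all genes. Neither the ranges nor the shares at 4-fold were compared at equal brightness. The flattest was Copz1, a COPI coat subunit, at 26.1 and 24.3 in the pineal gland, 25.5 in the subcommissural organ, 26.2 in the subfornical organ, 29.3 in the ependyma and 24.9 in total brain. The subcommissural organ held the highest value for 28 of the 99 (28.3%, against 17.4% of all genes), and for 32 after quantile normalization. The second pineal gland array held the lowest for 38 (38.4%, against 28.9%), and for 22 after quantile normalization.

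**Figure D1:**
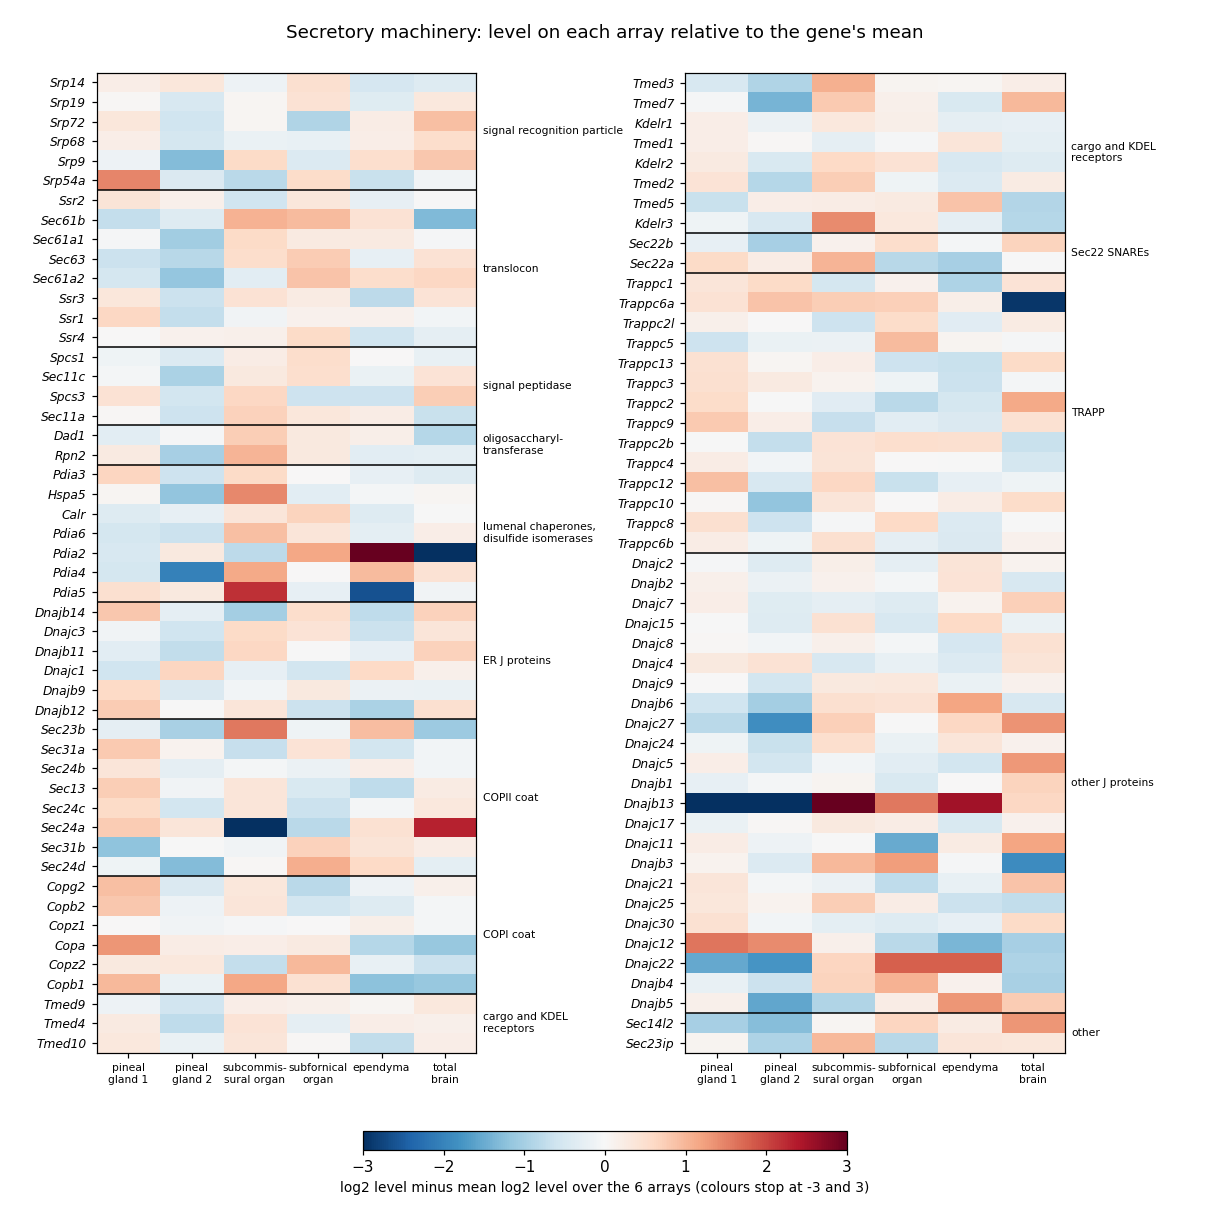
Level of the 99 members that reached 1.05 on any array, in rows grouped by role, on the 6 arrays in columns. Colour is the log2 level minus the gene's mean over the 6 arrays. Most rows are pale, and the deepest colours are those of Pdia2, Pdia5, Sec24a, Trappc6a and Dnajb13.

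Spread between arrays of 1 tissue could be read from the pineal gland alone. Of 93 members measured there, 0 differed 4-fold between the arrays, against 2.86% of all genes. The first array was higher for 78 of the 93, with a median log2 difference of 0.51 (0.43 for all genes), which quantile normalization reduced to 0.22. The SD of the log2 difference was 0.55. The widest gap with the first array higher was that of Srp54a, at 1.28 and 0.345, and with the second higher that of Dnajc1, an ER J protein, at 5.18 and 12.3.

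A first comparison, of the subcommissural organ with total brain, asked how a secreting gland differs from brain at large. There was 1 array on each side, so the differences have no replicate check. Of 95 measured members, 8 were at least 4-fold higher and 1 lower. Over all genes 23.5% differed 4-fold, 8.63% higher and 14.9% lower, so the count of higher members was near that background while few members were lower. The median log2 difference was 0.15 for the members and -0.29 for all genes, and 57 of the 95 members lay above 0. The members' median stayed 0.32 to 0.48 above that of all genes under every alternative run.

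Entry into the ER was marked by Sec61b, the small beta subunit of the translocon. It stood at 33.8 in the subcommissural organ, 31.7 in the subfornical organ, 22.2 in the ependyma, 10.1 and 12.6 in the pineal gland and 6.62 in total brain. It was 5.11-fold higher in the subcommissural organ and 4.79-fold higher in the subfornical organ than in total brain. The value in total brain was the lowest of the 6, and both pineal gland values lay between it and the other structures. No other translocon gene measured reached 4-fold there. Sec61a1, which forms the channel, was at 24.6 in the subcommissural organ, 20.1 in both the subfornical organ and the ependyma, 16.1 and 8.10 in the pineal gland and 16.2 in total brain. Of the 5 measured SRP genes 4 lay below total brain in the subcommissural organ, with a median of -0.27. Srp72, a protein of the particle's core, was at 51.8 in total brain and between 14.8 and 35.4 elsewhere. Its dimmer probes did not give the same order. One was at 5.95 in total brain and at 6.83 and 6.39 in the pineal gland. Another was highest in total brain, at 17.4, but at 1.83 in the ependyma.

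Processing enzymes of the membrane were high throughout. Dad1, a subunit of oligosaccharyltransferase, was at 291 in the subcommissural organ, 216 in the subfornical organ, 199 in the ependyma, 140 and 171 in the pineal gland and 96.1 in total brain. Rpn2, another subunit, was at 26.5 in the subcommissural organ, 15.9 in the subfornical organ, 10.4 in the ependyma, 15.7 and 6.56 in the pineal gland and 10.6 in total brain. Both were highest in the subcommissural organ, with log2 differences from total brain of 1.60 and 1.32. The signal peptidase genes Sec11a, Sec11c, Spcs1 and Spcs3 had a median of 0.16, and none was 4-fold different in any comparison made here.

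Chaperones and disulfide isomerases had a median log2 difference of 0.85 between the subcommissural organ and total brain, and all 6 measured genes lay above 0. Hspa5, the central ER chaperone also called BiP, was at 26.0 in the subcommissural organ, 7.76 in the subfornical organ, 9.28 in the ependyma, 10.1 and 4.26 in the pineal gland and 9.98 in total brain. The subcommissural organ stood alone above the other arrays, 2.61-fold over total brain. Calr, a lectin chaperone for glycoproteins, was at 13.3 in the subcommissural organ and 16.5 in the subfornical organ, against 7.93 to 10.4 on the other arrays, and its dimmer probe was at 1.83 and 0.54 there, so the probes did not give the same order. Pdia5, a disulfide isomerase, was at 5.09 in the subcommissural organ, 1.54 and 1.36 in the pineal gland, 0.931 in the subfornical organ, 0.182 in the ependyma and 1.04 in total brain. That is at least 4.84-fold above both total brain and the ependyma.

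Transport genes supplied the other differences. Sec23b, a subunit of the inner COPII coat, was at 49.1 in the subcommissural organ and 30.9 in the ependyma, against 14.9 in the subfornical organ, 13.5 and 8.29 in the pineal gland and 7.64 in total brain. It was 6.43-fold and 4.05-fold above total brain in the subcommissural organ and the ependyma. Kdelr3, a receptor that returns ER residents, was at 6.42 in the subcommissural organ, 2.98 in the subfornical organ, 1.98 in the ependyma, 2.20 and 1.73 in the pineal gland and 1.33 in total brain, 4.81-fold above total brain. Its relatives Kdelr1 and Kdelr2 were also highest in the subcommissural organ, at 22.1 and 16.6, but ranged at most 2.09-fold over the arrays. Copb1, the beta subunit of the COPI coat, was at 5.04 in the subcommissural organ, 3.10 in the subfornical organ, 4.41 and 1.96 in the pineal gland, 0.969 in the ependyma and 1.03 in total brain, at least 4.80-fold above total brain and the ependyma. The exception was Sec24a, which selects cargo for the COPII coat. It was at 0.0745 in the subcommissural organ, 0.686 in the subfornical organ, 1.67 in the ependyma, 2.06 and 1.55 in the pineal gland and 6.03 in total brain. This makes it at least 5.73-fold lower in the subcommissural and the subfornical organ than in total brain. A second Sec24a probe was below 1.05 on every array and did not share this order.

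**Figure D2:**
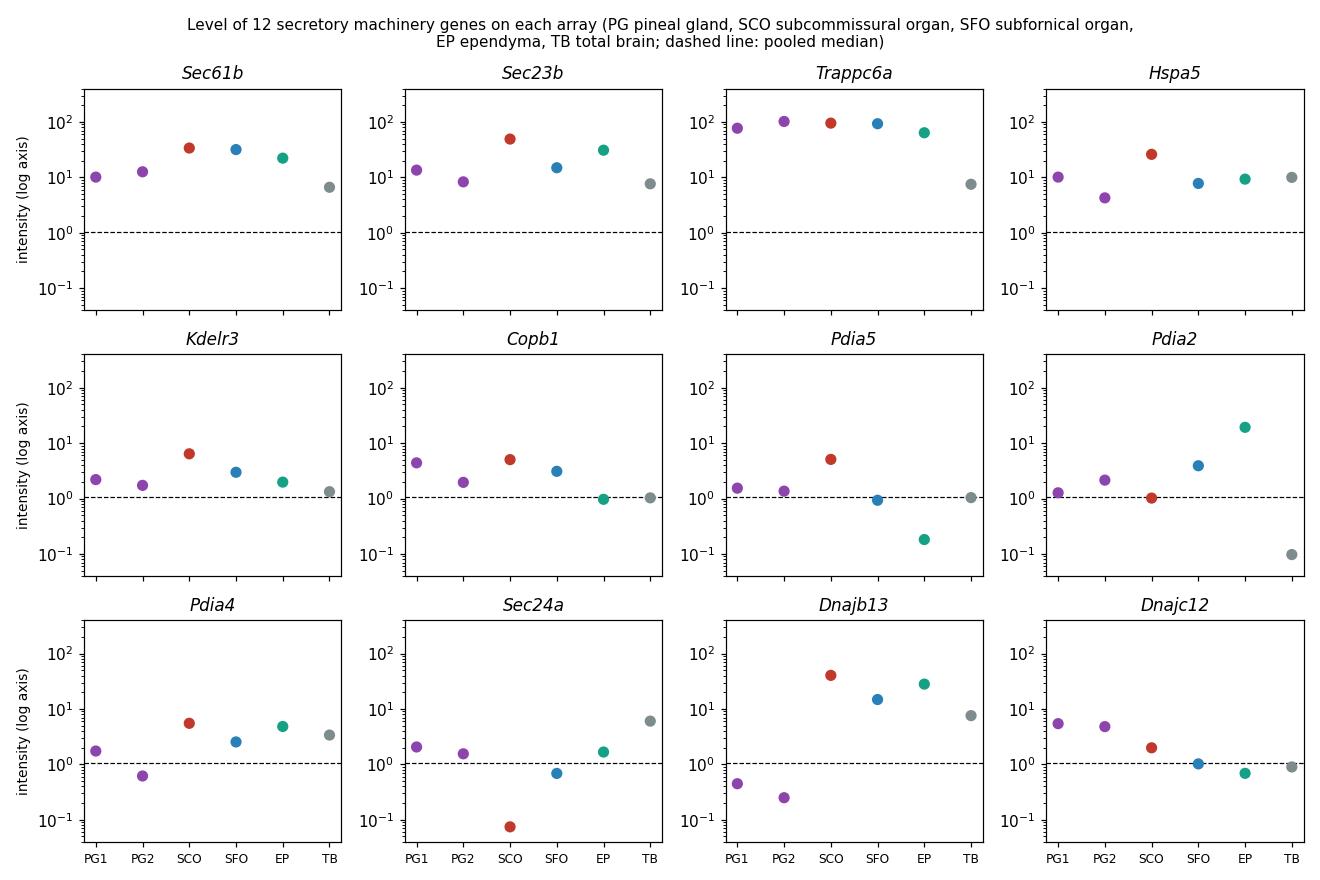
Intensity on a log axis of 12 members on each of the 6 arrays, 1 point per array, with the dashed line at 1.05. Trappc6a is low only on the total brain array, Hspa5, Kdelr3 and Pdia5 are highest in the subcommissural organ, Pdia2 is highest in the ependyma, and Dnajb13 lies below the line in the pineal gland only.

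Trappc6a, a TRAPP subunit, set total brain apart from every dissected structure. It was at 77.0 and 102 in the pineal gland, 95.2 in the subcommissural organ, 92.9 in the subfornical organ, 63.8 in the ependyma and 7.50 in total brain. The 5 dissected samples lay close together and 8.51-fold to 13.7-fold above total brain, a difference that rests on the 1 array of total brain in every comparison. Of the other 13 measured TRAPP genes none reached 4-fold in any of the 7 comparisons. Their brightest was Trappc1, between 46.3 in the ependyma and 130 on the second pineal gland array.

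The remaining members at 4-fold in the subcommissural organ were J proteins outside the ER list. Dnajb13, a protein of the ciliary axoneme, was at 40.4 in the subcommissural organ, 28.1 in the ependyma, 14.8 in the subfornical organ, 7.58 in total brain and 0.447 and 0.250 in the pineal gland. Its order was that of the summed cilia markers except that the ependyma, not the subcommissural organ, had the highest sum, and the part of ciliated cells in the Dnajb13 values was not tested. Dnajb3 was at 17.7 in the subfornical organ, 14.5 in the subcommissural organ, 7.23 in the ependyma, 7.90 and 5.53 in the pineal gland and 2.00 in total brain.

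The subfornical organ and the ependyma were also set against total brain, which these comparisons share with that of the subcommissural organ. In the subfornical organ 5 of 95 measured members were at least 4-fold higher and 2 lower, where 16.8% of all genes were called, 7.19% higher and 9.63% lower, so neither count exceeded the background. The median was 0.06, against -0.20 for all genes, and -0.07 when all probes of a gene were averaged. The higher members were Sec61b, Trappc6a, Dnajb3, Pdia2 and Dnajc22, and the lower ones were Sec24a and Dnajc11. Dnajc11, a mitochondrial J protein, was at 2.95 in the subfornical organ, 19.2 in total brain and 7.67 to 10.1 on the other arrays. In the ependyma 4 of 95 members were higher and 0 lower, where 16.7% of all genes were called, 7.38% higher and 9.34% lower. The median was -0.26, against -0.41 for all genes. Quantile normalization raised it to 0.09 and the count of higher members to 9, so no direction is given for the members as a whole in the ependyma.

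Pdia2, a disulfide isomerase best known from the pancreas, had the widest range of the ER genes. It was at 19.3 in the ependyma, 3.91 in the subfornical organ, 1.27 and 2.15 in the pineal gland, 1.02 in the subcommissural organ and 0.0975 in total brain. The ependyma stood apart, at least 18.4-fold above total brain and the subcommissural organ. Oxytocin (Oxt) was at 317 on the ependyma array and at 0.654 or less elsewhere. The list of magnocellular neuron markers, 3 of 5 measured, summed to 331 there and to 5.77 to 96.6 on the other arrays. Most of the 331 was Oxt itself, and the other markers were not highest in the ependyma. Scg2 was at 5.40 there and 14.2 in total brain, and Chga at 8.62 there and 86.4 and 50.2 in the pineal gland. Whether the cells that make oxytocin contributed to the Pdia2 value was not tested. Dnajc22, a membrane J protein, was at 3.52 in the ependyma and 3.50 in the subfornical organ, at least 3.35-fold and 3.33-fold above total brain, with 1.59 in the subcommissural organ and 0.352 and 0.297 in the pineal gland.

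The subcommissural organ was compared with the ordinary ependyma to separate secretory ependymal cells from the rest of the ventricular lining. Cilia markers summed to 1188 and 1337 in the subcommissural organ and the ependyma, but other lists differed. Microglial markers summed to 81.5 and 503, astrocyte markers to 121 and 375 and neuronal markers to 66.5 and 155. Magnocellular markers summed to 5.77 and 331, of which Oxt alone was 317 in the ependyma. The part of these cell types in the differences was not tested. With 1 array on each side, 66 of 98 measured members lay above 0 in the subcommissural organ (67.3%, against 52.7% of all genes), with a median log2 difference of 0.40, against 0.06 for all genes. The 2 arrays of the pineal gland differed by a median of 0.51 over the members and 0.43 over all genes, so a shift of 0.40 is within what 2 arrays of 1 tissue showed, although there all genes moved nearly as much. The median was 0.36 after quantile normalization and between 0.33 and 0.44 under the other alternatives. Without the J proteins outside the ER and the Sec14-like and Sec23-interacting genes, 52 of 73 lay above 0, with a median of 0.44. Few single genes differed strongly. There were 3 members at least 4-fold higher and 3 lower, against 12.8% of all genes, 4.91% higher and 7.86% lower, so the members did not exceed the background. All 3 higher members had levels near 5 or below, and with the minimum at the pooled 75th percentile the counts were 0 higher and 1 lower.

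By role, most groups stood above the median of all genes, those for retrieval, folding and glycosylation among them. Of the cargo and KDEL receptors 9 of 11 were higher. Tmed3, one of the p24 proteins that sort cargo into vesicles, was at 50.0 in the subcommissural organ against 25.0 in the ependyma, and Kdelr3 had a log2 difference of 1.70. Chaperones and isomerases had a median of 0.83, with 6 of 7 higher, Pdia2 being the exception. Hspa5 differed by 1.49 on the log2 scale and Pdia5 by 4.80, and Pdia6 was at 10.6 against 4.63. Both oligosaccharyltransferase genes were higher, Rpn2 by 1.35 and Dad1 by 0.55, as were all 4 signal peptidase genes, with a median of 0.49. COPI genes had a median of 0.61, with Copb1 the highest at 2.38. The translocon had a median of 0.45, the ER J proteins one of 0.48 and TRAPP one of 0.38. Of the Sec22 genes, Sec22a was at 3.32 against 0.825, at least 3.16-fold higher, and Sec22b at 4.34 against 3.80. The COPII coat had a median of -0.20, with 5 of 8 lower, Sec24a among them. The SRP stood at 0.08 and the J proteins outside the ER at 0.07, close to the median of all genes. Among the latter Dnajb5 was at 0.226 against 1.05, and so near background on both sides.

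**Figure D3:**
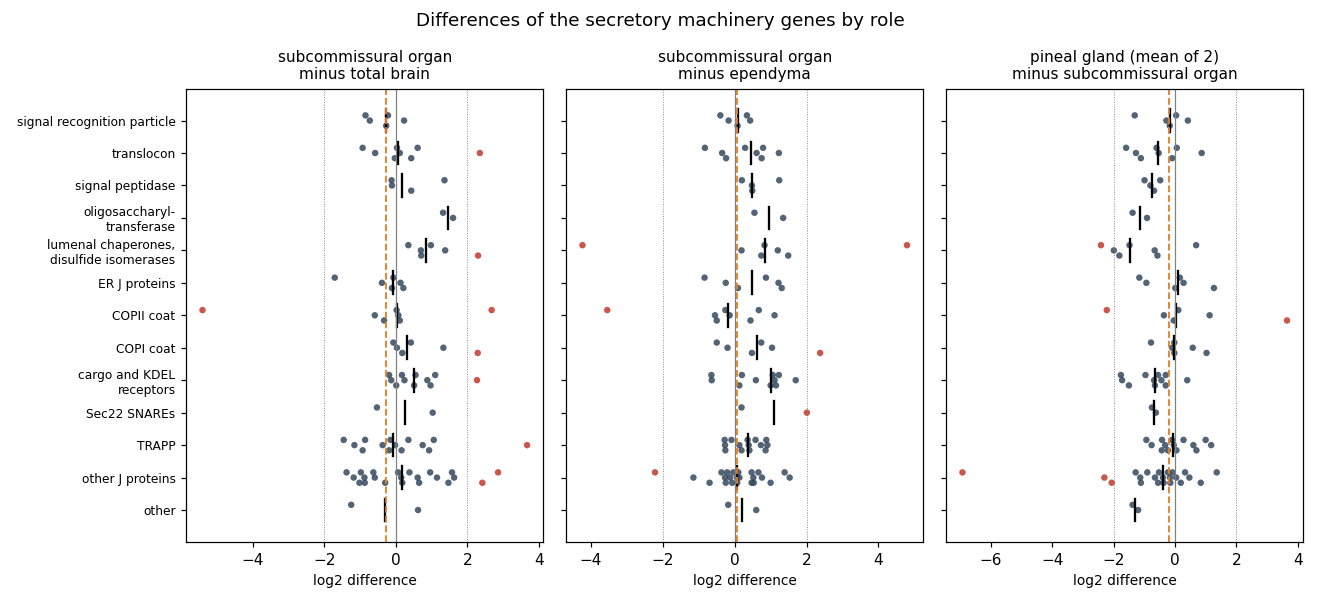
Log2 differences of the measured members by role, 1 point per gene, for the subcommissural organ against total brain, against the ependyma, and for the pineal gland against the subcommissural organ. Black bars are group medians, the dashed line is the median of all genes (-0.29, 0.06 and -0.19), dotted lines mark 4-fold and red points lie beyond it. Receptors, chaperones and oligosaccharyltransferase lie to the right in the middle panel, as do most other roles, and to the left in the third.

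The pineal gland was tested against single arrays with limma, a linear model over all measured genes with Benjamini-Hochberg adjustment. The only residual degree of freedom, 1, was the difference within the pineal gland, and each lone array was assumed to vary as much. The model used the floored log2 values. Where a fold is given as "at least", its p-value belongs to the difference of those values, which is larger than that fold. The standard error came out the same for all genes, at 0.72 on the log2 scale against total brain and the ependyma and 0.71 against the subcommissural organ, so calling a gene amounted to asking for a log2 difference of at least 1.82, 1.85 and 1.83.

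Against total brain 4 members rose and 3 fell of 94 measured, where 23.8% of all genes were called, 7.68% rising and 16.1% falling. Trappc6a rose by 3.57 on the log2 scale (limma, adjusted p = 1.15e-05). Pdia2, near background in total brain, rose at least 1.57-fold (limma, adjusted p = 1.34e-05). Both pineal gland arrays lay above total brain for each. Dnajc12 was at 5.43 and 4.80 in the pineal gland, 1.99 in the subcommissural organ, 1.02 in the subfornical organ, 0.689 in the ependyma and 0.898 in total brain. This co-chaperone of the aromatic amino acid hydroxylases, which include the tryptophan hydroxylase encoded by Tph1, rose at least 4.86-fold (limma, adjusted p = 0.00357), and its adjusted p was 0.0626 without the filter on low values. Tph1 was at 547 and 352 in the pineal gland and at most 1.91 elsewhere. Copa, the alpha subunit of the COPI coat, was at 18.4 and 8.68 against 3.36 and rose by 1.91 (limma, adjusted p = 0.0373, between 0.0183 and 0.179 under the alternatives). All 6 COPI genes lay above 0, with a median of 0.68, but on the second pineal gland array alone 3 of 6 did.

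In the pineal gland Dnajb13, under 1.05 there, fell at least 7.21-fold. On the log2 scale Dnajc27, a J protein with a Rab-like domain, fell by 2.70, and Sec14l2, a lipid-binding protein, fell by 2.45 (limma, adjusted p = 1.34e-08 for Dnajb13, 0.0015 and 0.00458). Both pineal gland arrays lay below total brain for each. Dnajc27 was at 10.9 and 5.22 against 48.9, and Sec14l2 at 13.5 and 11.2 against 67.4. After quantile normalization the adjusted p was 0.0737 for Dnajc27 and 0.0584 for Sec14l2. Among the members, no translocon gene and no lumenal chaperone or isomerase was called lower. Hspa5, at 7.19 ± 4.14 (SD, n = 2) against 9.98, had a log2 difference of -0.60, and Calr, at 8.39 ± 0.540 (SD, n = 2) against 10.4, one of -0.31. At 4-fold, 3 members were higher and 3 lower, with 20.9% of all genes as background, 6.71% higher and 14.2% lower. The counts were 5 higher without the second pineal gland array and 6 lower without the first. The members' median was -0.15 against -0.45 for all genes, and 0.35 against 0.03 after quantile normalization.

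Against the ependyma 2 members rose and 7 fell of 98 measured, where 20.2% of all genes were called, 7.24% rising and 12.9% falling. Dnajc12 and Pdia5, both near background in the ependyma, rose at least 4.86-fold and 1.38-fold (limma, adjusted p = 5.90e-04 and 3.43e-04), with both pineal gland arrays above the ependyma. Dnajb13 and Dnajc22, under 1.05 in the pineal gland, fell at least 26.8-fold and 3.35-fold (limma, adjusted p = 8.10e-17 and 2.55e-05). Pdia2 fell by 3.55 on the log2 scale (limma, adjusted p = 1.35e-05). Both arrays lay below the ependyma for each. The other 4 that fell were Pdia4, Dnajb5, Dnajb6 and Dnajc27, each of which lost its call under 2 or more alternatives. Pdia4, a disulfide isomerase also called ERp72, was at 1.74 and 0.617 against 4.83. At 4-fold, 2 members were higher and 5 lower, with 18.1% of all genes as background, 6.49% higher and 11.6% lower, and 5 and 3 without the second pineal gland array. The members' median was -0.11, equal to that of all genes, and 0.04 after quantile normalization.

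The 2 glands were compared directly. Against the subcommissural organ 68 of 95 measured members lay lower in the pineal gland, with a median log2 difference of -0.42 against -0.19 for all genes, and of -0.18 against -0.01 after quantile normalization. By limma 6 members fell and 1 rose, where 20.8% of all genes were called, 11.5% falling and 9.29% rising. Hspa5 fell by 1.99 and Sec23b fell by 2.22 on the log2 scale, and Pdia4 fell at least 5.24-fold (limma, adjusted p = 0.0294, 0.0125 and 0.00535), both pineal gland arrays lying below the subcommissural organ for each. These 3 calls were not kept after quantile normalization or without the filter, where the adjusted p lay between 0.052 and 0.211. Dnajb13 and Dnajc22, under 1.05 in the pineal gland, fell at least 38.5-fold and 1.52-fold (limma, adjusted p = 7.81e-20 and 0.00878), and without the filter the adjusted p of Dnajc22 was 0.0947. Dnajc27 fell by 2.06 on the log2 scale (limma, adjusted p = 0.0223), but its second probe, under 1.05 on both sides, had a difference of 0.17. The adjusted p of Dnajc27 was 0.0911 after quantile normalization, 0.175 without the filter and 0.407 with the mean of all probes. Sec24a, near background in the subcommissural organ, rose at least 1.70-fold. With the floored values its log2 difference was 3.65 (limma, adjusted p = 5.68e-06), a size that depends on the floor. Its second probe, under 1.05 on both sides, had a difference of -0.38.

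By role the chaperones and isomerases had a median of -1.48, with 6 of 7 lower in the pineal gland, oligosaccharyltransferase -1.15 with both genes lower, signal peptidase -0.74 with all 4 lower and the cargo and KDEL receptors -0.65 with 10 of 11 lower. These medians differed between the pineal gland arrays. The signal peptidase median was -0.36 with the first array alone and -1.21 with the second, and that of the receptors -0.33 and -1.05. For the chaperones and isomerases it was -1.36 and -1.53, with 5 and 6 of 7 lower. The translocon had a median of -0.57 with 6 of 8 lower, and the Sec22 genes one of -0.68 with both lower. COPI, COPII, ER J proteins and TRAPP had medians between -0.07 and 0.08. The COPI median was 0.51 with the first array alone and -0.28 with the second, and that of COPII 0.41 and -0.33. At 4-fold, 1 member was higher and 5 lower, where 18.3% of all genes were, 8.21% higher and 10.1% lower. The lower count was 8 without the first pineal gland array and 2 without the second, and the higher count was 2 without the second.

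**Figure D4:**
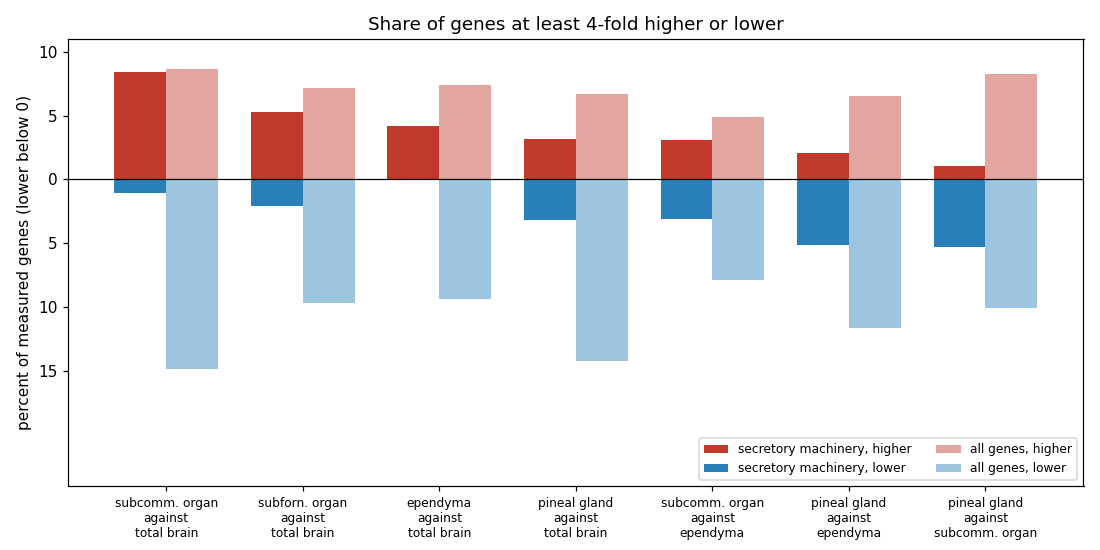
Percent of measured genes at least 4-fold higher (above 0) or lower (below 0) in each of the 7 comparisons, for the members in full colour and all genes in pale colour. The members' bars are shorter than those of all genes on both sides, except that the shares higher in the subcommissural organ than in total brain are nearly equal, with 8 of 95 members and 8.63% of all genes.

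Other genes of the pathway were taken from a list of 70, of which 56 were measured on the arrays and none is a member. In the subcommissural organ against total brain 4 of 51 were at least 4-fold higher and 4 lower. Over all genes 8.63% were higher and 14.9% lower, so neither count exceeded the background. The largest rise was that of Creb3l4, at least 72.7-fold. It is also one of the subcommissural markers used above, so its calls in this paragraph repeat that marker. Creb3l2 was at least 3.07-fold higher. The others higher were Creld2 and Sdf2l1, ER proteins that respond to stress of the organelle. Sdf2l1 was at 67.4 in the subcommissural organ, 26.3 in the subfornical organ, 19.9 in the ependyma, 9.25 and 8.51 in the pineal gland and 14.4 in total brain. The lower ones were Canx, Ykt6 and the oxidases Ero1a and Ero1b, which drive disulfide formation. Canx, the membrane lectin chaperone calnexin, was at 0.552 in the subcommissural organ, 3.59 in the subfornical organ, 4.45 in the ependyma, 1.32 and 0.167 in the pineal gland and 9.52 in total brain. It was at least 9.06-fold lower in the subcommissural organ than in total brain and at least 4.24-fold lower than in the ependyma, opposite to most folding genes. Ero1a was at 4.36 in the subcommissural organ, 6.97 in the subfornical organ, 5.06 in the ependyma and 4.12 and 1.47 in the pineal gland, all below the 18.9 of total brain. Against the ependyma 44 of 50 pathway genes lay above 0 in the subcommissural organ, against 52.7% of all genes. Their median was 0.59, against 0.06 for all genes. At 4-fold 2 were higher, Creb3l4 and Creb3l1, the latter at least 1.58-fold, and 1, Canx, lower. Over all genes 4.91% were higher and 7.86% lower. Manf, a secreted protein of the stressed ER, was at 120 against 52.8. In the pineal gland against total brain 0 of 50 pathway genes rose and 4 fell by limma, where 7.68% of all genes rose and 16.1% fell. The largest fall was that of Derl3, a factor for export of misfolded proteins, at 0.547 and 1.65 against 20.3 (log2 difference -4.42, limma adjusted p = 2.66e-08). Against the subcommissural organ 1 rose and 5 fell, where 9.29% of all genes rose and 11.5% fell. Herpud1, Creld2, Sdf2l1, Derl3 and Creb3l4 fell and the SNARE gene Ykt6 rose. Herpud1, which acts in ER-associated degradation, was at 4.47 and 1.07 against 14.8. In the subfornical organ 1 of 51 was 4-fold higher and 1 lower than in total brain, where 7.19% of all genes were higher and 9.63% lower. In the ependyma 0 of 47 were higher and 3 lower, where 7.38% of all genes were higher and 9.34% lower.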

How the data were processed

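The deposited values are linear intensities, 1 for each probe on each array, already processed by the authors. Scanner, software, background correction and scaling are not given in the sources used here. A value of -9999 was taken as missing, and 34963 of 35129 probes were complete. Probes were named through the platform annotation (16865 with 1 symbol, 165 with several, 18099 not listed), and 16836 gene identifiers matched a current RefSeq table. The brightest probe by mean log2 over the 6 arrays stood for each gene. Of the members 77 had 1 probe and 30 several. Values were floored at the pooled 5th percentile. No further scaling was applied.

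Limma 3.58.1 (R 4.3.3) was fitted to all 6 arrays with a mean per tissue, two-sided, called at an adjusted p under 0.05, and was tested on simulated data. A fold whose lower side lay under 1.05 was computed against 1.05 and is given as "at least". The members, gene lists and motifs were chosen with earlier results of these data known. Named were the genes of the rule, up to 6 members in each direction per comparison at 4-fold, the brightest and the most variable of each role, and up to 3 pathway genes in each direction. Others (such as Manf, Tmed3, Pdia6 and Copz1) were named after their values were seen. Alternatives were quantile normalization, no filter, the 75th percentile as filter, a floor at the 10th percentile, the mean of all probes, leaving out each pineal gland array and, chosen after seeing the data, the brightest probe by linear mean.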

Additional observations from a re-analysis of the deposited data

Results flagged for a closer look

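Dnajb13, a protein of the ciliary axoneme, lay more than 4-fold on opposite sides of total brain in 2 structures. It was at 40.4 in the subcommissural organ and at 0.447 and 0.250 in the pineal gland, against 7.58 in total brain. It was 5.34-fold above total brain in the subcommissural organ and at least 7.21-fold below it in the pineal gland. The log2 differences lay 6.92 apart as computed, a size that depends on the floor because both pineal gland values are under 1.05. The difference between the 2 glands was at least 38.5-fold. It was the only member with this pattern.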

How the results depend on the processing

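Of the counts and medians recomputed under an alternative, 141 stayed within 1.5 times the count or within the spread of the pineal gland pair and 39 moved. That spread was 0.36 on the log2 scale, wider than most of the medians, so a median could change sign and still count as stayed. The ependyma's median against total brain did so, at -0.26 and, after quantile normalization, 0.09. The subfornical organ's did so too, at 0.06 and, with the mean of all probes, -0.07. Under quantile normalization the ependyma had 9 members 4-fold above total brain. In the pineal gland against total brain there were then 5 at 4-fold higher, 1 lower by limma and a median of 0.35. Against the ependyma 3 were lower by limma, and against the subcommissural organ 3 were 4-fold lower and 2 lower by limma. Without a filter on low values, 1 member was 4-fold lower in the ependyma than in total brain. By limma 2 were higher and 1 lower in the pineal gland against total brain, 3 lower against the ependyma and 1 lower against the subcommissural organ. With the filter at the pooled 75th percentile, the subcommissural organ had 0 lower members against total brain and 0 higher and 1 lower against the ependyma, and the subfornical organ had 3 higher and 1 lower. With that filter the pineal gland had 1 at 4-fold higher against total brain. Against the ependyma it had 0 higher and 2 lower at 4-fold, and 0 higher and 4 lower by limma. Against the subcommissural organ it had 0 higher by either rule and 3 lower at 4-fold. With the floor at the 10th percentile, 4 were lower by limma in the pineal gland against the ependyma. With the mean of all probes, 3 members were lower in the subcommissural organ, 1 in the subfornical organ and 1 in the ependyma than in total brain, 4 were lower by limma in the pineal gland against the ependyma, and 0 were higher by either rule against the subcommissural organ. The brightest probe by linear mean changed no count beyond 1.5 times.

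Leaving out 1 pineal gland array gave values without a test. Against total brain 4-fold higher members numbered 3 to 5 and lower ones 3 to 6. Against the ependyma they numbered 2 to 5 and 3 to 7, and against the subcommissural organ 1 to 2 and 2 to 8. The medians ranged from -0.44 to 0.09, from -0.30 to 0.20 and from -0.62 to -0.20. No paired analysis was possible because only the pineal gland has more than 1 array. Dim genes have bounds only, since no detection call was used and the limit of detection is unknown.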
